A study of Mus musculus with 2 samples.

Results

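The VEGF system of 9 genes was followed in EYFP+ cells of the adult mouse dentate gyrus (DG). The members were the ligand genes Vegfa, Vegfb, Vegfc and Pgf, the receptor genes Flt1, Kdr and Flt4, and the neuropilin genes Nrp1 and Nrp2. They were taken by symbol from 32285 listed genes, and all 9 were listed in each of the 12 deposited cluster tables. WT mice were NestinCreERT2;VEGFWT/WT;ROSA-STOP-EYFP and iKD mice were NestinCreERT2;VEGFfloxed;ROSA-STOP-EYFP, littermates aged 7 to 10 weeks at the start. Both genotypes carried the Cre and the reporter and both received tamoxifen (TAM), so by the labels the genotypes differed in the floxed Vegfa alleles. Cre is driven by a Nestin transgene and acts only after TAM, in cells that then express it. EYFP marks those cells and their progeny. At 21 d after TAM, cells of 5 mice were pooled and sorted into 1 library per genotype, and 10x Genomics 3′ single-cell sequencing was run. The study asked which genes differ between genotypes after loss of VEGF in neural stem and progenitor cells.

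VEGF-A binds the receptor tyrosine kinases VEGFR1, encoded by Flt1, and VEGFR2, encoded by Kdr. VEGFR2 carries most of its mitogenic signal in endothelium, while VEGFR1 binds the ligand tightly with weaker kinase activity. VEGF-B and placental growth factor, encoded by Pgf, bind VEGFR1. VEGF-C acts mainly through VEGFR3, encoded by Flt4, which is best known from lymphatic vessels. Neuropilins have no kinase domain and serve as co-receptors, both for VEGF and, together with plexins, for class 3 semaphorins. In the DG, VEGF is made by astrocytes and by neural stem and progenitor cells beside the vessels.

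A 3′ library counts tags near the end of a transcript, so the place of a gene edit within the transcript matters. In the GENCODE M21 annotation of GRCm38, Vegfa is a protein-coding gene on the minus strand at chr17:46016993-46032369. The labels do not state which part of the gene is floxed. The last exon alone has 1887 bases, so tags from the 3′ end come from that exon for the most part, and a Vegfa UMI, that is a counted unique molecule, tells an intact from a recombined transcript only if the floxed part lies there. The Vegfa counts below are therefore not used as a check of the deletion.

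The promoters of Vegfa, Vegfb and Nrp2 are shown. Among members with at least 100 UMIs, these shared the cluster of their highest level among the 8 clusters described below. Flt1, with fewer UMIs, was highest in the same cluster and is not shown. All 9 members had an entry in RefSeq promoters of GRCm38.p6. Each line gives the 250 bases before the annotated start, in the direction of the gene, at chr17:46032378-46032627 on the minus strand, chr19:6987652-6987901 on the minus strand and chr1:62703067-62703284 on the plus strand. The Nrp2 line stops after 218 of its 250 bases, where the gene starts in GENCODE. Capitals mark the core letters of the hypoxia response element, ACGTG or GCGTG, on either strand.

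Vegfa promoter: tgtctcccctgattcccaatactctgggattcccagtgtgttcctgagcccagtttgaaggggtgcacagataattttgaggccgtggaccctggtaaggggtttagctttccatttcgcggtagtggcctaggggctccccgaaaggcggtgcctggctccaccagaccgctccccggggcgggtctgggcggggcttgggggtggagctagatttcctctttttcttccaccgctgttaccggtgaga

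Vegfb promoter: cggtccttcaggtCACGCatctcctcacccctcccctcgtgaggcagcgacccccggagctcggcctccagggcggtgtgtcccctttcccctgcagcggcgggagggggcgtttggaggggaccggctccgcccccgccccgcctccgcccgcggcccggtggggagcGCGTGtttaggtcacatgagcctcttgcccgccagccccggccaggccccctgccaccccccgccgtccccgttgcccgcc

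Nrp2 promoter: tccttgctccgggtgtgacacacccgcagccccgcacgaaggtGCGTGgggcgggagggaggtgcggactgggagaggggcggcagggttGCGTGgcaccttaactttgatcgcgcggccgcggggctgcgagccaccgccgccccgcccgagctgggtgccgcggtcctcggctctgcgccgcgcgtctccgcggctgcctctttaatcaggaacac

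The hypoxia core occurred 2 times each in the windows of Vegfb, Nrp2 and Kdr, 1 time each in those of Flt1 and Nrp1, and 0 times in those of Vegfc and Flt4. Vegfa and Pgf had 2 windows each. In Vegfa the core occurred 0 times at the outermost start, which is the one shown, and 2 times at the inner start, and in Pgf 1 time and 0 times. Of 32851 RefSeq promoter windows of this length, 38.6% held at least 1 such core. A CACGTG would count on both strands. The GC box GGGCGG was searched on both strands, and 32.7% of all windows held at least 1. The box occurred 5 times in the full Nrp2 window of 250 bases, which runs past the stretch shown. In the window of Vegfb it occurred 4 times and in that of the outermost Vegfa start 2 times. These windows were 72.4%, 76.4% and 59.2% G and C, against a median of 52.4% over all promoters. A match is a match of letters only, and a count of 0 covers the window alone, since sequence outside the windows was not searched.

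The recovered totals were 44142118 UMIs over 5543 WT cells, with a median of 8051 per cell, and 37451839 UMIs over 5261 iKD cells, with a median of 7080. The deposited names divide the cells into qNSC1, qNSC2, aNSCs, NSPCs, IPC1, IPC2, eNB and NB, called the 8 clusters here, and IN1, IN2, Astrocytes and Undefined. Ratios between genotypes are over the first 6 of these, the clusters in which the study compared genotypes. The defining markers go against several names. In the 8 clusters, each of 10 microglia markers (among them Cx3cr1, P2ry12 and Tmem119) had a UMI in 88.8% of cells or more, while the 9 neural stem cell markers had a median of 0.360% of cells and a highest value of 1.97%, for Aldoc. In the cluster named Astrocytes, all 8 choroid plexus epithelium markers were present in more than 50% of cells, Ttr in 99.3%, and it held 4 WT and 130 iKD cells. Cluster and sex were tied as well. Cells scored female, with Xist and no Y-linked transcript, made up 81.8% of WT and 89.0% of iKD cells in IPC1, but 0.769% and 14.6% in IPC2 and 19.3% and 88.9% in aNSCs. Over the 6 clusters they were 47.0% of WT and 65.4% of iKD cells. The libraries shared 9 cell barcodes. Cluster names are used below as deposited.

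Levels are counts per 1000000 (CPM), the summed UMIs of a gene over the summed UMIs of the same cells, which for a 3′ tag do not scale with transcript length. Values in parentheses are exact 95% intervals, Poisson for levels, binomial for shares of cells and for ratios. They cover counting error only. Those for levels and ratios take each UMI as independent, also where several fell in the same cell. Each genotype had 1 library, so nothing was tested between genotypes and no p-value is given. In such sums, fewer cells with a transcript and less RNA per cell cannot be told apart.

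Over the 8 clusters, Nrp1, Nrp2 and Vegfb were the members with the most UMIs, and the members that code for VEGF-A and its signalling receptors were rarely seen. Nrp1 had 12593 UMIs, in 60.4% of cells (59.4 to 61.3), Nrp2 had 4866, in 32.1% (31.2 to 33.0), and Vegfb had 4227, in 31.4% (30.5 to 32.3). Kdr had 476 UMIs, in 4.15% of cells (3.77 to 4.55), Vegfa had 153, in 1.22% (1.02 to 1.46), and Flt1 had 75, in 0.612% (0.471 to 0.783). The median depth of these cells was 7622.5 UMIs. As a yardstick for rare transcripts in the same cells, Pecam1, an endothelial marker also known from some leukocytes, had a UMI in 12.9%, and of the other 9 endothelial markers Cldn5 and Esam had 0 UMIs and none of the rest was in more than 0.544%. The shares of Vegfa and Flt1 lay between that of Pecam1 and those of the other endothelial markers, and whether these UMIs came from the cells or from free RNA was not tested.

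Vegfc and Flt4, the ligand and receptor pair of lymphatic growth, and Pgf were at or near 0. Flt4 had 0 UMIs in all 12 clusters, and over the 8 clusters 0 of 10292 cells allows a share of up to 0.0291%, taking 3 counts as the limit. This bounds cells with a captured UMI at this depth, not cells that express the gene. Vegfc had 3 UMIs in all, 1 in WT eNB and 2 in iKD cells of the Astrocytes cluster. Pgf had 7 UMIs in the 8 clusters, 4 in WT and 3 in iKD, and 4 of these 7 were in NSPCs. No ratio between genotypes is read for these members.

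Vegfa, the ligand gene targeted in iKD mice, was highest in qNSC1 among the 8 clusters, at 6.79 CPM (3.88 to 11.02), from 16 UMIs in 13 of 292 cells. With both genotypes pooled, the next cluster, IPC1, was at 2.45 (1.74 to 3.37), below the qNSC1 interval. From IPC1 downwards, eNB at 1.99, NSPCs at 1.98, aNSCs at 1.64, IPC2 at 1.34, NB at 1.09 and qNSC2 at 0.511 each overlapped its neighbour in the order. The wide interval of aNSCs, 0.446 to 4.19 from 4 UMIs, also overlapped that of qNSC1. Outside the 8 clusters, 12 UMIs in IN2 gave 11.2 CPM and 7 UMIs in Astrocytes gave 6.97, both with intervals that included the qNSC1 level. Each library had 8 UMIs in qNSC1, at 6.94 CPM in WT and 6.64 in iKD, which leaves a ratio between 0.313 and 2.92 within the interval. IPC1 stood at 4.06 CPM in WT and 1.08 in iKD, and in WT its interval overlapped that of qNSC1. In qNSC1 cells scored female the levels were 6.79 and 10.3, and in those scored male 5.60, from 2 UMIs, and 0.

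Most Vegfa-positive cells held a single molecule. Over the 8 clusters, 105 of 126 cells had 1 UMI, 17 had 2 and the highest cell had 5. UMIs in cells of at least 2 made up 37.6% of the WT total and 19.2% of the iKD total. In IPC1, 29 WT UMIs came from 19 of 867 cells, 6 of them with at least 2 UMIs, and 9 iKD UMIs from 8 of 1138 cells.

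Vegfb, whose product binds VEGFR1, was among the 8 clusters likewise highest in qNSC1, at 96.3 CPM (84.2 to 109.7). NSPCs followed at 65.5 (61.5 to 69.8), apart from qNSC1 above and from NB at 53.9 below. The remaining clusters lay between 50.3 in IPC1 and 39.6 in qNSC2, each overlapping its neighbour. In qNSC1, 51.4% of cells had a Vegfb UMI, and 37.9% did after each cell was thinned to 4500 UMIs, compared with 15.3% to 24.6% in the other 7 clusters. By genotype, qNSC1 stood at 103 CPM in WT and 89.6 in iKD, and these intervals overlapped. The level was higher still in the Astrocytes cluster, at 154 (131 to 181), which rests on 151 UMIs of iKD cells and 4 of WT cells. In the 8 clusters, Ttr had a UMI in 9.60% of WT and 99.8% of iKD cells, and in iKD it reached 1.01% of its Astrocytes level. At the same percentage, Vegfb would reach 1.53 CPM against the 53.4 measured in iKD, and Vegfa 0.0712 against 1.44. These values concern RNA of the Astrocytes cluster only, and free RNA from other cells was not tested.

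**Figure D1:**
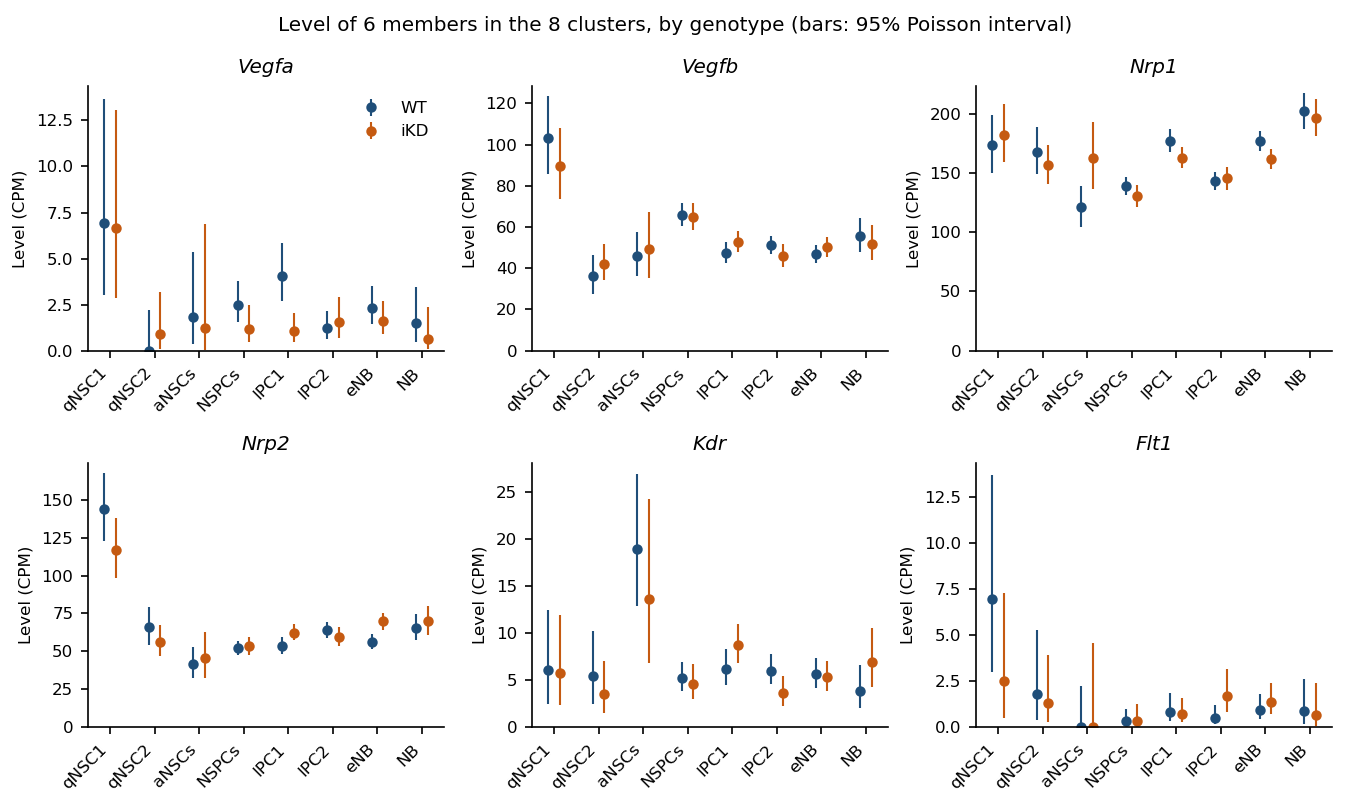
Levels of 6 members, in CPM (y axis), in each of the 8 clusters (x axis), with WT in blue and iKD in orange, points for the level over the cells of 1 library and bars for its 95% Poisson interval. Vegfa, Vegfb and Nrp2 were highest in qNSC1 in both genotypes and Kdr in aNSCs, at 18.95 in WT and 13.6 in iKD.

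Kdr had its highest level in aNSCs, at 17.2 CPM (12.4 to 23.2), from 42 UMIs in 33 of 305 cells. IPC1 came next at 7.56 (6.25 to 9.06), and the other 6 of the 8 clusters lay between 4.34 in qNSC2 and 5.94 in qNSC1, each overlapping its neighbour. The aNSCs level was 3.24 times the median of the other 7 clusters. In WT aNSCs, 31 UMIs gave 18.95 CPM (12.9 to 26.9), and in iKD aNSCs 11 UMIs gave 13.6 (6.79 to 24.3). Both lay above every other cluster of the same genotype, but in iKD the interval overlapped that of IPC1, at 8.75 (6.86 to 10.997). With both genotypes pooled, aNSCs were highest within female cells, at 12.6 (6.73 to 21.6), and within male cells, at 15.6 (9.38 to 24.3). These intervals overlapped those of the next cluster, IPC1 in female and NSPCs in male cells. The male aNSCs UMIs were all from WT cells. The Astrocytes cluster had 0 Kdr UMIs, which allows up to 3.67 CPM by the Poisson limit.

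Flt1 rested on very few cells. Its highest level was in qNSC1, at 4.67 CPM from 11 UMIs, but these came from 5 cells and 1 WT cell held 6 of them. The aNSCs, where Kdr was highest, had 0 Flt1 UMIs in 305 cells. Of 427 Kdr-positive cells 1 also had a Flt1 UMI, or 0.234% (0.00593 to 1.30), against 0.628% of the cells without Kdr. Both receptors are hallmarks of endothelium. At least 1 of 10 endothelial markers, among them Pecam1, had a UMI in 79 of 427 Kdr-positive cells, 18.5% (14.9 to 22.5), in 6 of 63 Flt1-positive cells, 9.52% (3.58 to 19.6), and in 13.9% of all cells (13.3 to 14.6). The Kdr-positive cells were deeper than all cells, at medians of 8148 and 7622.5 UMIs. At least 2 such markers were in 0 of the 427, 0 of the 63 and 0.107% of all cells, numbers too small to compare, and the part of endothelial RNA in these values was not tested.

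Nrp1 varied least across the 8 clusters. It was highest in NB, at 199 CPM (189 to 211), followed by qNSC1 at 178 (162 to 196), which overlapped NB, and then eNB and IPC1, both close to 170. IPC2 at 144, NSPCs at 136 and aNSCs at 135 formed the lower end and overlapped their neighbours. NB was 1.23 times the median of the other 7. Over all 12 clusters IN2 was highest, at 238 (210 to 269), and Astrocytes lowest, at 31.9 (21.8 to 45.004).

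Nrp2 showed a steeper pattern. In qNSC1 it reached 130 CPM (116 to 146), 2.15 times the median of the other 7 clusters and apart from every other cluster. The next levels were 73.6 in IN2, 67.6 in NB and 62.8 in eNB, and the lowest of the 8 was 42.9 in aNSCs (35.1 to 52.0). After thinning, 39.3% of qNSC1 cells had a Nrp2 UMI, against 17.1% to 24.6% in the other 7. The qNSC1 level was 144 (123 to 168) in WT and 117 (98.5 to 138) in iKD. Within cells scored female it was 135 and within cells scored male 118, again the highest of the 8 clusters in each. Nrp2 overlaps the antisense gene Gm29083, which is listed in the tables. The 3′ protocol is stranded, but the counting was not described in that detail.

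Of the 5 members with at least 100 UMIs, 3 were therefore highest in qNSC1, compared with 24.2% of 12089 other genes with at least 100 UMIs in the 8 clusters. A qNSC1 level at least 1.5 times the median of the other 7 clusters was found for the same 3, beside 10.6% of other genes. For aNSCs and Kdr the corresponding percentages of other genes were 11.2% and 6.04%, and NB was the highest cluster of 25.7%. The clusters were formed from the expression of these same cells, so the differences between clusters are descriptions. In qNSC1, the neural stem cell markers had a median of 0.685% of cells and reached 11.99% for Nes, and the microglia markers a median of 99.7%. Whether cells of another type account for the qNSC1 levels was not tested.

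Between genotypes, Vegfa had fewer UMIs in iKD and the more abundant members did not differ beyond counting error over the 6 clusters. The paper held that Vegfa lay too close to the detection limit in these data to compare genotypes. Its ratio is given here as a description of few counts. Vegfa had 74 UMIs in WT and 36 in iKD, at 2.45 and 1.48 CPM, for a log2 ratio of -0.73 (-1.35 to -0.14). Vegfb had 1672 and 1333 UMIs, at 55.4 and 54.8 CPM, with the ratio at -0.02 (-0.12 to 0.09). For Nrp1, 4563 and 3681 UMIs or 151.3 and 151.4 CPM put it at 0.00074 (-0.062 to 0.064). The log2 ratio of Nrp2 was 0.03 (-0.07 to 0.13), from levels of 60.04 and 61.1, and that of Kdr was -0.10 (-0.42 to 0.21), from 196 and 147 UMIs. Flt1, with 25 and 24 UMIs, stood at 0.25 (-0.62 to 1.12). In IPC2, 5 WT and 10 iKD UMIs of Flt1 gave 1.74 (0.06 to 3.64), where 9.58% of genes with at least 100 UMIs had an interval above 1, and without IPC2 the Flt1 ratio was -0.37 (-1.47 to 0.68). A 1.2-fold change of Nrp1, Nrp2 or Vegfb in either direction lay outside these counting intervals, whereas that of Kdr held a 1.2-fold decrease and that of Flt1 a change in either direction.

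Of the 5 members with at least 100 UMIs, 1 was lower in iKD by more than 1.2-fold and 0 were higher, where 4.71% and 5.3% of the 11559 other genes were. An interval of the linear ratio wholly below 1, that is below 0 on the log2 scale, was found for 1 member and one above 1 for 0, where 10.1% and 13.2% of other genes had one. The difference in Vegfa was uneven among clusters. In IPC1 the 29 WT and 9 iKD UMIs gave -1.91 (-3.18 to -0.80), where 7.19% of genes with at least 100 UMIs had an interval below 1, and the other 5 clusters without IPC1 gave -0.21 (-0.95 to 0.51). In IPC2, 12 and 9 UMIs gave 0.33 (-1.10 to 1.70), and in the NSC clusters qNSC1, qNSC2 and aNSCs, 11 and 11 gave 0.06 (-1.28 to 1.41). Leaving out NSPCs gave -0.63 (-1.34 to 0.05). In cells scored female, 45 and 26 Vegfa UMIs gave -0.97 (-1.72 to -0.24). Of genes with at least 100 UMIs there, a number Vegfa did not reach, 9.56% had an interval below 1. In cells scored male, 25 and 7 UMIs gave -0.80 (-2.25 to 0.45).

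**Figure D2:**
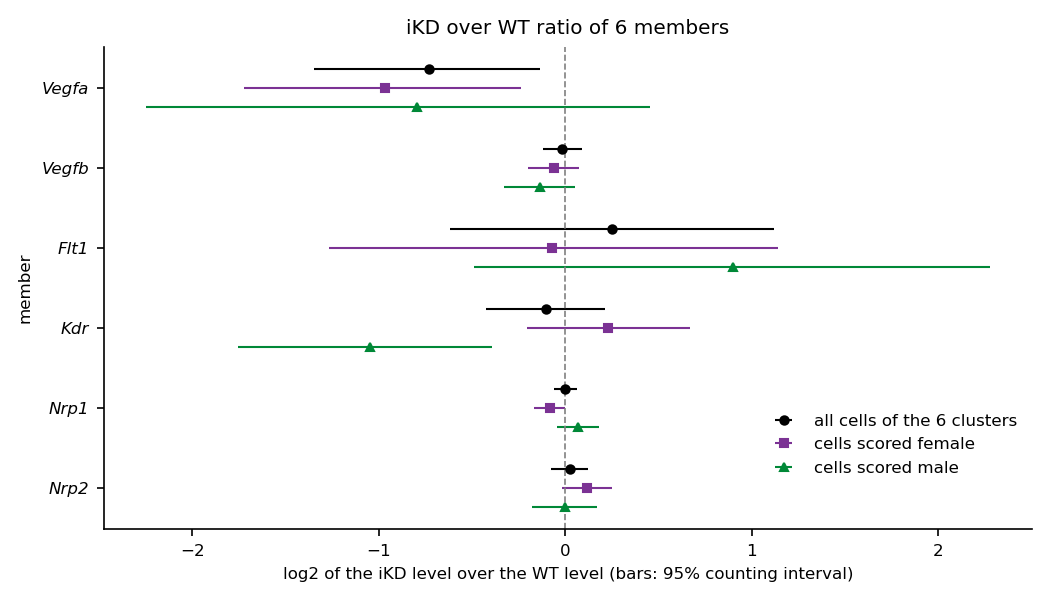
log2 ratio of the iKD over the WT level (x axis) of 6 members (y axis) over the 6 clusters, for all cells (black circles), cells scored female (purple squares) and cells scored male (green triangles), with bars for the 95% counting interval. The ratios of Vegfb, Nrp1 and Nrp2 lay close to 0 in each set, and that of Kdr was 0.23 in female and -1.05 in male cells.

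Cluster by cluster, the neuropilins moved in different directions. Nrp1 was higher in iKD in aNSCs, with 121 CPM against 163, or 0.43 on the log2 scale (0.10 to 0.75), where 7.61% of other genes had an interval above 1. It was lower in IPC1, at -0.12 (-0.23 to -0.01), and in eNB, at -0.13 (-0.24 to -0.03), where 7.19% and 7.17% had one below. Nrp2 was higher in the same IPC1, at 0.21 (0.02 to 0.41), and eNB, at 0.31 (0.14 to 0.48), beside 7.57% and 9.15% of other genes, and with eNB and NB added to the 6 clusters its log2 ratio was 0.10 (0.02 to 0.18), where 14.8% of other genes had an interval above 1. In IN2, where the depth was lowest of the named clusters at a median of 3102.5 UMIs, 64 WT and 15 iKD UMIs of Nrp2 gave -0.90 (-1.81 to -0.07), beside 16.9% of genes with at least 100 UMIs and an interval below 1. The share of cells scored female rose from 19.3% in WT to 88.9% in iKD in aNSCs, and within female cells Nrp1 stood at 140 CPM (101 to 188) in WT and 161 (133 to 193) in iKD, within male cells at 119 (100.1 to 140) and 139 (50.9 to 302). These intervals overlapped within each sex.

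Kdr had opposite signs in different clusters and sexes. In IPC2, 59 WT and 21 iKD UMIs gave a log2 ratio of -0.75 (-1.54 to -0.01), and in the NSC clusters qNSC1, qNSC2 and aNSCs together 47 and 26 gave -0.79 (-1.54 to -0.07). Intervals below 1 were found for 7.75% and 7.63% of the genes with at least 100 UMIs there, a number Kdr did not reach. In IPC1 it had 44 and 73 UMIs, at 0.50 (-0.06 to 1.08), and without IPC1 the ratio of the other 5 clusters was -0.51 (-0.93 to -0.10). In cells scored male, 102 WT and 24 iKD UMIs gave levels of 7.37 and 3.57 CPM and a log2 ratio of -1.05 (-1.75 to -0.39), beside 9.07% of other genes with an interval below 1, and without aNSCs it was -0.87 (-1.59 to -0.20). In cells scored female, 80 and 106 UMIs gave 5.71 and 6.70 CPM and a log2 ratio of 0.23 (-0.20 to 0.67). Of these UMIs, IPC1 held 33 in WT and 68 in iKD, and in each other cluster of the 6 the female level was lower in iKD.

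**Figure D3:**
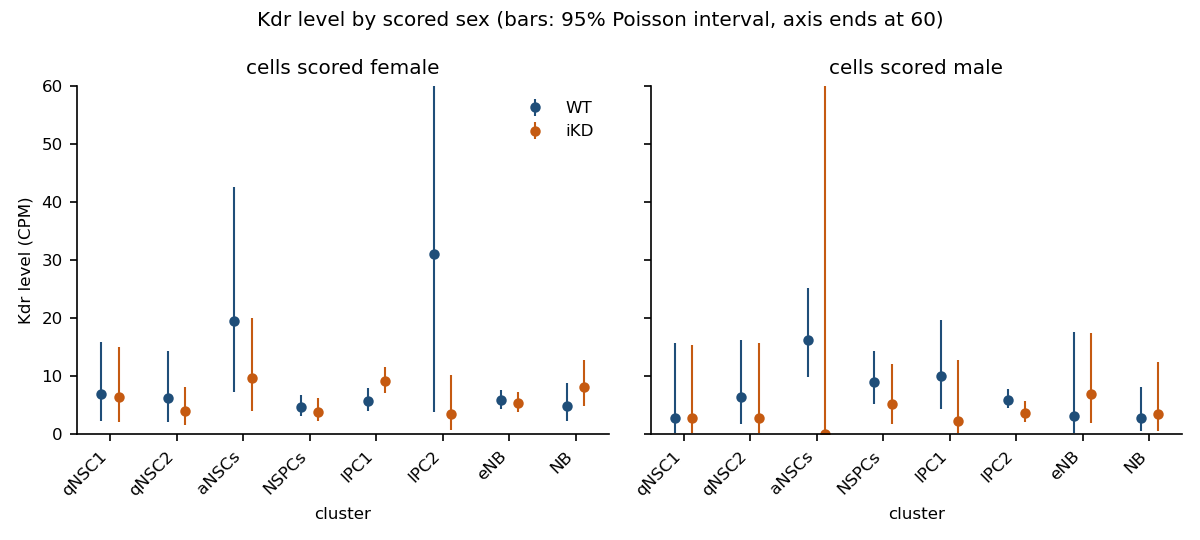
Kdr level in CPM (y axis, cut at 60) in the 8 clusters (x axis) for cells scored female (left) and male (right), with WT in blue, iKD in orange and bars for the 95% Poisson interval. In male aNSCs, 19 WT UMIs stood beside 0 in the 6 iKD cells, and in female IPC1 33 WT UMIs stood beside 68 in iKD.

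Ligand and receptor transcripts were then read in the same cells. Of 126 cells with Vegfa, 4 also had Kdr, or 3.17% (0.872 to 7.93), beside 4.16% of the cells without Vegfa, and 0 had Flt1, which allows up to 2.89% by the exact binomial interval. Nrp1 was found in 80 of these cells, 63.5% (54.4 to 71.9), beside 60.4% of the others. Nrp1 and Nrp2 shared cells somewhat more often, with Nrp2 in 33.7% of Nrp1-positive and 29.7% of Nrp1-negative cells, but the Nrp1-positive cells were deeper, at a median of 7864.5 against 7267 UMIs. After thinning, the shares were 22.7% and 22.4%.

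The wider pathway was described by 4 lists. Of 12 semaphorin and plexin genes, which encode the other ligands and the signalling partners of neuropilins, only Plxna4 reached 100 UMIs over the 6 clusters. It stood at 269 CPM in WT and 260 CPM in iKD, or -0.05 on the log2 scale (-0.10 to -0.0039). Of 31 genes that relay VEGF receptor signals, 30 had at least 100 UMIs and 0 passed 1.2-fold in either direction. Their median log2 ratio was 0.0034, against 0.01 over all genes with that many UMIs, and 6 had an interval above 1 and 5 below, where 13.2% and 10.1% of all genes had one. The lowest were Src, a cytoplasmic tyrosine kinase, at -0.23 (-0.42 to -0.04), and Pik3r1, a regulatory subunit of phosphoinositide 3-kinase and the gene of the list with most UMIs, at -0.22 (-0.25 to -0.19). The highest were Map2k2, a kinase that activates ERK, at 0.12 (0.05 to 0.19), and Akt2 at 0.11 (-0.05 to 0.27). For Pik3r1 the log2 ratio was 0.01 in female and -0.46 in male cells.

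Of 8 genes of oxygen sensing, which control VEGF-A transcription through hypoxia-inducible factors (HIF), 6 had at least 100 UMIs, 0 passed 1.2-fold and the median log2 ratio was -0.0039. Hif1a, which encodes the regulated HIF subunit, had the most UMIs and stood at -0.04 (-0.11 to 0.04). Vhl, the ligase component that marks HIF for degradation, was the highest at 0.16 (0.03 to 0.29), followed by the prolyl hydroxylase Egln2 at 0.06 (-0.07 to 0.20), and Egln1 was the lowest at -0.09 (-0.20 to 0.01). Of 11 HIF targets listed, 10 were matched by symbol and 8 had at least 100 UMIs. The symbol Ca9 was not matched. Of these 8, 1 passed 1.2-fold, downwards, 4 had an interval below 1 and 0 above, and the median was -0.12. Over all genes, 4.71% were lower past 1.2-fold, 10.1% had an interval below 1 and 13.2% above. The gene past the fold was Ddit4, an inhibitor of mTOR signalling that is also a glucocorticoid target, at -0.99 (-1.07 to -0.91), with 0.07 in female and -1.89 in male cells. P4ha1, a collagen prolyl hydroxylase subunit with the most UMIs of the list, stood at -0.23 (-0.27 to -0.18), and -0.22 and -0.23 in the separate sexes. The remaining named targets were Pgk1, a glycolytic enzyme, at -0.05 (-0.17 to 0.06), and Pfkfb3, a regulator of glycolysis, at 0.05 (-0.04 to 0.14). By level, 6 of these 8 targets and 3 of the 6 oxygen sensing genes with at least 100 UMIs had their highest value of the 8 clusters in qNSC1, the cluster of the highest Vegfa, Vegfb and Nrp2, as did 6 of the 30 relay genes, beside the 24.2% of other genes given above. Among them were Hif1a at 235 CPM, Pgk1 at 107 and Pfkfb3 at 151. Ddit4, at 40.7 CPM, and Vhl, at 31.0, had their lowest values in qNSC1, and P4ha1 was highest in aNSCs.

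**Figure D4:**
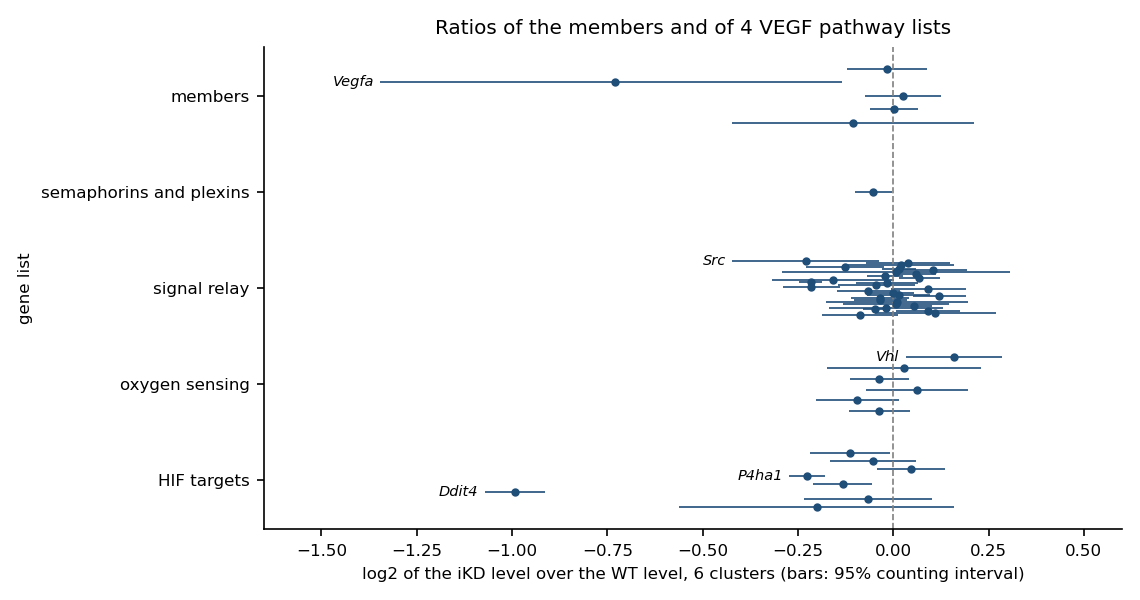
log2 ratio of the iKD over the WT level over the 6 clusters (x axis) for each gene with at least 100 UMIs, grouped by list (y axis), with bars for the 95% counting interval. Vegfa at -0.73 and Ddit4 at -0.99 were the only genes of these lists past 1.2-fold.

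The genes whose levels varied most like a member were sought over the 20 groups of cluster and genotype with at least 30 cells, by Pearson correlation of log2(CPM + 1). For Vegfb they were Cct8, Eif2s2 and Prelid3b, with r between 0.942 and 0.947. Nrp1 was followed most closely by Asap1, Ikbkb and Skap2, with r between 0.973 and 0.976, and Nrp2 by Snx8, Coro1c and S1pr1, with r between 0.910 and 0.939. The nearest genes to Kdr were Tor1aip2, Lgals9 and Samhd1, with r between 0.899 and 0.902. Over the 16 groups of the 8 clusters alone, r fell to 0.683 for Nrp1 and Skap2 and to 0.739 for Kdr and Samhd1, and stayed at 0.938 for Nrp2 and Snx8. The genes were picked for the highest r among all with at least 1000 UMIs, so high values follow in part from that choice. The groups share 2 libraries and differ in depth, so these values are descriptions.

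In the same annotation, the other members, all protein-coding, lay at chr19:6982473-6987651 for Vegfb, chr8:54077606-54187096 for Vegfc, chr12:85166635-85177790 for Pgf, chr5:147561604-147726011 for Flt1, chr5:75932827-75978458 for Kdr, chr11:49609263-49652739 for Flt4, chr8:128358604-128503363 for Nrp1 and chr1:62703285-62818695 for Nrp2.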

How the data were processed

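EYFP+ cells of the DG were measured by 10x Genomics 3′ sequencing in 1 WT and 1 iKD library. By the methods, alignment and removal of duplicates were done in CellRanger, and filtering, normalization, integration and clustering in Seurat. The submitters' processing notes list Cell Ranger 7.0.1, CASAVA 1.8.2, HISAT2 2.0.6, Subread, featureCounts and Seurat 4.1.1. They give the build as GRCh38, which is a human build, and the mouse build used for alignment is not given in the sources used here. The authors deposited natural log values, 1 table per cluster, in which 1 was added to the counts scaled to 10000 UMIs in each cell before the log was taken. The methods state a lower limit of 2000 genes per cell, and 496 of the 10804 deposited cells lay below it.

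UMI counts were recovered by undoing the log, and 100% of 32261786 positive values came out whole within 0.01. All cells and columns were used, with no doublet caller, since multiplets had been filtered by gene number before deposit according to the methods. Counts were summed per cluster and genotype and scaled to 1000000 UMIs (CPM), without a pseudocount. Intervals (95%) are exact Poisson for levels, Clopper-Pearson for shares, and the exact binomial interval of the split between libraries for ratios. UMI totals per library limit the precision, and 3 counts were taken as the limit where 0 were found. No test between genotypes was made, since 1 library stands for each. Cells were scored female by Xist without Ddx3y, Eif2s3y, Uty or Kdm5d, and male by the reverse.

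Beside the 9 members, whatever their values, the genes named were, per pathway list, the 2 highest and 2 lowest ratios and the gene with most UMIs, and, per member with at least 200 UMIs, the 3 genes of at least 1000 UMIs most like it. The members and lists were chosen with earlier results of these data known. Sequences and coordinates came from RefSeq promoters of GRCm38.p6 and GENCODE M21 of GRCm38, which matched 31424 of 32285 symbols. Recovery and intervals were tested on simulated data. The simulated UMIs were independent, so the effect of several UMIs in the same cell on the intervals was not tested. Alternatives covered scaling, the pseudocount, depth, sex, clusters, cell filters and UMI minimums. Python 3.11.15, numpy 2.4.6, scipy 1.17.1, pandas 2.3.3 and matplotlib 3.10.9 were used.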

Additional observations from a re-analysis of the deposited data

Results flagged for a closer look

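The log2 ratio of Kdr, iKD over WT in the 6 clusters, was 0.23 (-0.20 to 0.67) in cells scored female and -1.05 (-1.75 to -0.39) in cells scored male. It drew attention because the same contrast had opposite signs in the sexes with counting intervals that did not overlap, and the difference between the sexes was not tested, with 1 library per genotype. The values rest on 80 WT and 106 iKD UMIs in female cells and 102 and 24 in male cells. Cluster makeup moved with both sex and genotype, as the aNSCs, where Kdr was highest, held 139 male cells in WT and 6 in iKD. Without aNSCs the ratios were 0.28 (-0.17 to 0.73) in female and -0.87 (-1.59 to -0.20) in male cells. Among female cells, Kdr was higher in iKD in IPC1 only, at 5.64 CPM in WT and 9.14 in iKD, from 33 and 68 UMIs. It was lower in iKD in each other cluster of the 6. Male IPC1 cells held 8 WT UMIs and 1 iKD UMI. The ratio within each sex without IPC1 was not computed.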

How the results depend on the processing

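No paired analysis was possible because each genotype had 1 library. Of the ratios over the 6 clusters of the 5 members with at least 100 UMIs, Kdr moved most, to 0.23 in female and -1.05 in male cells, to 0.28 and -0.87 in these without aNSCs, and to -0.51 (-0.93 to -0.10) without IPC1. Nrp1 moved to -0.083 in female cells, -0.090 in these without aNSCs, 0.069 in male cells and -0.065 (-0.11 to -0.01) over all 12 clusters. Vegfb moved to -0.14 in male cells and -0.15 in these without aNSCs. The log2 ratio of Vegfa over the 6 clusters was negative under every alternative run, from -1.06 without IPC2 to -0.21 without IPC1, but its interval included 0 without IPC1, without NSPCs, in male cells with or without aNSCs, and without the 5% of cells with most genes, at -0.56 (-1.21 to 0.06). Thinning gave -0.89, and the pseudocount of 0.01 gave -0.46. Leaving out single clusters, leaving out aNSCs within a sex, and the ratio of thinned shares were chosen after seeing the data, as was the highest cluster within each sex. The highest of the 8 clusters stayed the same for all 5 members under 5 of the 6 other settings, and in male cells Vegfa was highest in IPC1, from 5 UMIs, against 2 in qNSC1. Members with a lower share of cells in iKD and separate intervals numbered 0 with at least 1 UMI and after thinning, and 2 (Vegfb and Nrp1) with at least 2 UMIs. The shares with at least 2 UMIs move with depth and were not thinned. WT cells were deeper, at a median of 8051 UMIs against 7080 in iKD over all cells. Over the lists, genes past 1.2-fold upwards numbered 0, or 1 with at least 20 UMIs, 5 with 1 UMI in each genotype and 1 in female cells, and downwards 1, or 2, 8 and 2 in the same settings and 6 in male cells. Depth limits Flt4 to an upper bound, Vegfc and Pgf to a few UMIs and Flt1 to wide intervals, and the Flt1 ratio turned negative in some settings, the lowest being -0.37 without IPC2.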

Other observations

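Vegfd, a further ligand gene of the family outside the 9 members, had 9 UMIs in 6 of the 10292 cells of the 8 clusters, or 0.0583% of cells (0.0214 to 0.127), with 4 UMIs in WT and 5 in iKD. Its 5 iKD UMIs came from 2 cells.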
